A study of Homo sapiens with 4 samples.

Results

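The SOX transcription factor genes described here are 9 genes, SOX2, SOX4, SOX5, SOX6, SOX8, SOX9, SOX11, SOX12 and SOX13, of the 36601 genes counted in U-2 OS cells. They were chosen by symbol with earlier results on these libraries known, above all the low SOX2 and SOX6 of irradiated cells. The comparison of irradiated with untreated cells is therefore given for them as a description. The tests of SOX genes below use contrasts made inside each library, or the difference of such contrasts between irradiated and untreated libraries. Lists of other genes are also read in irradiated against untreated cells, again as a description. U-2 OS is an established human osteosarcoma cell line, a bone tumour line grown as an adherent monolayer. Single cells were sorted into plates and sequenced by SORT-seq, in which each well has a cell barcode and each captured transcript a unique molecular identifier (UMI). Untreated cells (UT) gave 2 libraries and cells exposed to 4 Gy of ionizing radiation (IR) gave 2, with 1 library of each kind in experiment 1 (replicate 1) and in experiment 2 (replicate 2). The irradiation took place 48 h before sorting by the design text and the methods, although the treatment field of the labels gives 24 h. No other agent or allele is named in the labels. By the methods the experiments were independent sets of samples. The p-values of irradiated against untreated cells reflect how far the libraries of a group differ from each other. Those of contrasts made inside libraries reflect how far the contrast varies from library to library.

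The libraries held 358 and 367 UT cells and 247 and 248 IR cells, with total counts of 5867961, 6810079, 5736339 and 6186428 for UT replicates 1 and 2 and IR replicates 1 and 2. Median counts per cell ran from 15662 to 22035 and were higher in both IR libraries than in both UT libraries. Every pair of libraries shared cell barcodes, between 173 and 350 of 376 distinct ones, and the wells of all plates carry barcodes of 1 set. Mesenchymal markers fitted the label, with VIM at 1720 to 2220 counts per 1000000 (CPM), SPARC at 1110 to 1200 and COL1A1 at 1540 to 2380. Of 11 mesenchymal and osteoblast markers, 9 were above 0 in every library, but SP7, a defining osteoblast factor, was at 0 in all 4 and COL1A2 did not exceed 2.64 CPM. The summed level of 12 markers of other cell types was 21.6 and 22.5 CPM in the experiment 1 libraries and 37.4 and 40.1 CPM in those of experiment 2. GFAP and CD3E were at 0 in both libraries of experiment 1 and at 6.63 to 6.90 and 3.56 to 4.11 CPM in both of experiment 2, in UT and IR alike. CDKN1A, the p21 gene that p53 induces after DNA damage, was at 324 and 277 CPM in UT and at 959 and 914 CPM in IR, so the irradiation labels and this transcript went together.

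SOX proteins bind DNA through a shared HMG box that sits in the minor groove and bends the helix, and they are sorted by sequence into subgroups. SOX2, of subgroup B1, maintains pluripotent and neural progenitor cells and has been linked to self-renewing cells in osteosarcoma. SOX4, SOX11 and SOX12, of subgroup C, act in progenitors of many tissues, SOX5, SOX6 and SOX13, of subgroup D, lack a transactivation domain of their own, and SOX8 and SOX9, of subgroup E, include the master regulator of cartilage, SOX9, with which SOX5 and SOX6 cooperate.

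SOX2 lies on chromosome 3 at 181711925 to 181714436 of GRCh38 (plus strand), inside an intron of the non-coding gene SOX2-OT, which runs on the same strand and shares 0 exonic bases with it. SOX2-OT itself was at 0.511 to 1.46 CPM, so its counts were few beside those of SOX2. SOX9 (chromosome 17, 72121020 to 72126416) overlaps SOX9-AS1 and SOX5 (chromosome 12, 23529504 to 24562544) overlaps SOX5-AS1, each on the opposite strand and with 0 shared exonic bases. SOX4 shares 168 exonic bases with an unnamed opposite-strand gene. On the same strand SOX11 shares 74 exonic bases with an unnamed gene and SOX6 shares 89 with MIR6073. The genes that overlap SOX4, SOX11 and SOX6 in this way were not found by symbol among the genes counted. Promoter windows in RefSeq (GRCh38.p14) were matched for 6 of the 9 genes, and SOX8, SOX9 and SOX11 had no entry. The 250 bases upstream of the RefSeq start are shown for the 4 genes on which the results below turn, SOX2 and SOX6 for irradiation and SOX4, SOX5 and SOX6 for the cell classes, with capitals marking the motif letters searched on both strands. The SOX2 window is chr3:181711675-181711924 (plus strand), that of SOX4 chr6:21593501-21593750 (plus), that of SOX5 chr12:24562492-24562741 (minus), and that of SOX6, for the farthest upstream of 5 starts, chr11:16738478-16738727 (minus).
SOX2: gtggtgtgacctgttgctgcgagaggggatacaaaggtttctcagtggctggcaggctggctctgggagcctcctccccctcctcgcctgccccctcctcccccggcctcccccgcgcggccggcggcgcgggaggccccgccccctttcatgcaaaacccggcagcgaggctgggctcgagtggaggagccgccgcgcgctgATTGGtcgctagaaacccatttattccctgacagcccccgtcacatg
SOX4: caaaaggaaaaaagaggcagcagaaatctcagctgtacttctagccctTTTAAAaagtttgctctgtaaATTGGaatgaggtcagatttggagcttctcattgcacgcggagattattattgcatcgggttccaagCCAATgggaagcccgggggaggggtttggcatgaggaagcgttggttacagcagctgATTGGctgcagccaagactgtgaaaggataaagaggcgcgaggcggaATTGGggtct
SOX5: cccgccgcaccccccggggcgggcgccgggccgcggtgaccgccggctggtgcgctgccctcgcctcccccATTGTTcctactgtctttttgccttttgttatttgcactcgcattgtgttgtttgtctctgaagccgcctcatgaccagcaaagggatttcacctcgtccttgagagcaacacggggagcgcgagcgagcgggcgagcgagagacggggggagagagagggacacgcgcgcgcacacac
SOX6: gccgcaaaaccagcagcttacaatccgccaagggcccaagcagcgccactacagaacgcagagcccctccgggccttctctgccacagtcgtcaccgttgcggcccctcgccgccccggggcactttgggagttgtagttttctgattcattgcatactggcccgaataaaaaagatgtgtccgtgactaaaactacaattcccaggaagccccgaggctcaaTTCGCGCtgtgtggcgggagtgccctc

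4 motifs were searched on both strands over 300 bases, from 250 before to 50 after the start. The CCAAT box was searched by the letters of its name and found for SOX2, SOX4 and SOX12, with 4 matches in SOX4, against 34.6% of all 35116 promoter windows. The cell cycle homology region (CHR) was TTTGAA in one form and TTTAAA in the other. A CHR match was found for SOX2, downstream of its start, and for SOX4, where both strands hold it since its letters read the same on each, against 24.0% of all windows. For E2F factors, which drive S phase genes, the letters TTGGCGC were searched in the first form of the site. The second form of that site had the letters TTCGCGC, and it was found upstream of SOX6. The third form of the site had the letters TTCCCGC, and it was found for SOX6 as well, downstream of the start. None of the other 5 matched genes held an E2F form, against 3872 of the 35116 windows. For SOX factors the searched letters were AACAAT in one form and AACAAAG in the other. The first of these was found in SOX5 alone, on the opposite strand, and either form in 14.5% of all windows. The matches describe these windows only.

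Of the 9 genes, SOX2 stood at 45.0 and 29.96 CPM in UT replicates 1 and 2 and at 12.2 and 15.04 CPM in IR replicates 1 and 2. Both IR libraries were below both UT libraries, and the fold within an experiment was 0.271 (95% counting interval 0.205 to 0.354) in experiment 1 and 0.502 (0.388 to 0.644) in experiment 2. Counting intervals here cover counting error only, and CPM is a share of each library's total, so fewer cells with a transcript and fewer transcripts per cell cannot be told apart in these sums. The separate intervals for SOX2 did not overlap between experiments, the UT libraries being the ones that were farther apart. The fitted log2 difference over both experiments was -1.54 (SE 0.26).

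In subgroup C, SOX4 was at 131 and 172 CPM in UT and at 137.5 and 220 CPM in IR. Each experiment 2 library exceeded both libraries of experiment 1, the groups overlapped, and the log2 difference was 0.16 (SE 0.25). SOX12 was at 69.2 and 54.2 CPM in UT and at 46.2 and 38.0 CPM in IR, with folds of 0.668 (0.570 to 0.781) and 0.701 (0.593 to 0.828). For SOX12 the IR libraries were below the UT libraries within and across experiments, by a smaller factor than for SOX2. SOX11, a neural and mesenchymal progenitor factor, was near its floor, at 1.02 and 3.08 CPM in UT (6 and 21 UMIs) and 1.57 and 2.91 CPM in IR (9 and 18 UMIs). Its level separated the experiments and not the treatments, in the same libraries that held GFAP and CD3E counts, whose part in it was not tested.

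In subgroup D, SOX6 was at 32.6 and 36.1 CPM in UT and at 10.6 and 10.7 CPM in IR. The 2 experiments gave nearly the same fold, 0.327 (0.241 to 0.438) and 0.295 (0.222 to 0.389), and the log2 difference was -1.77 (SE 0.19). SOX5, its usual partner, was at 24.0 and 26.9 CPM in UT and at 16.2 and 17.5 CPM in IR, with folds of 0.675 and 0.650 and a log2 difference of -0.67 (SE 0.19). The groups did not overlap for SOX5 either. How many of all genes have groups that do not overlap was not counted, so such separation only describes each SOX gene here. SOX13 was at 20.1 and 15.4 CPM in UT and at 18.1 and 14.9 CPM in IR. SOX13 levels overlapped between the groups, and its folds of 0.902 (0.686 to 1.18) and 0.965 (0.721 to 1.29) had counting intervals that include no difference.

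In subgroup E, SOX9 was at 238 and 270 CPM in UT and at 302 and 344 CPM in IR, with a fold of 1.27 in each experiment (1.18 to 1.36 and 1.20 to 1.36). SOX9 thus went the other way from SOX5 and SOX6 in both experiments, with both IR libraries above both UT libraries, and its log2 difference was 0.27 (SE 0.16). SOX8, a close relative of SOX9 known from neural crest and glia, was at 0.511 and 1.18 CPM in UT (3 and 8 UMIs) and at 4.01 and 4.204 CPM in IR (23 and 26 UMIs). The folds of SOX8 were 7.84 (2.37 to 40.8) and 3.58 (1.57 to 9.14), on counts so low that they lie within the range of markers of other cell types. A single cell gave 9 of the 26 UMIs of SOX8 in IR replicate 2, which is at 2.76 CPM without that cell. Low-cycle cells, a class defined below, held 16 of the 23 SOX8 UMIs in IR replicate 1 and 13 of the 26 in IR replicate 2. They were 55.8% and 55.6% of the classed cells there, and held 2847016 of 5736339 and 2957002 of 6186428 counts of all genes.

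**Figure D1:**
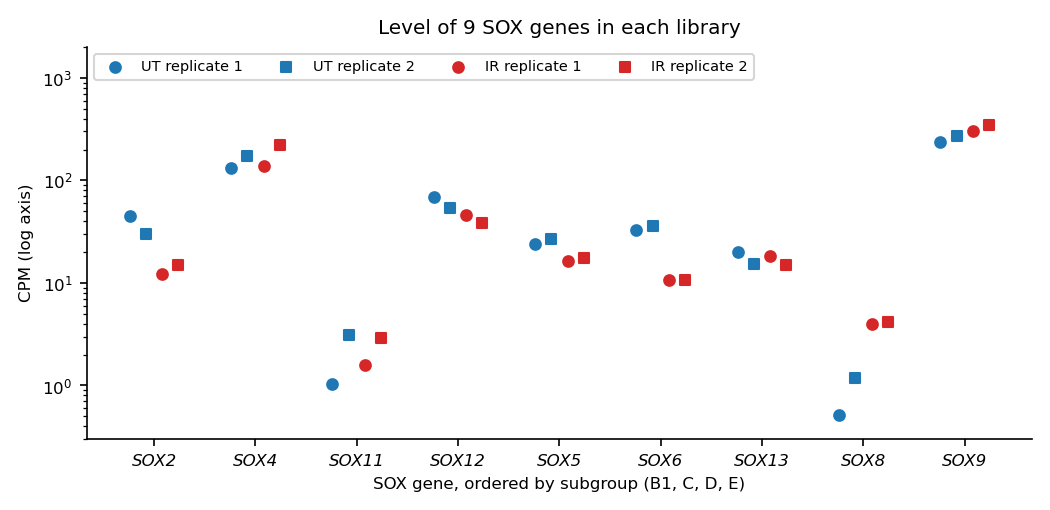
CPM of the 9 SOX genes on a log axis, 1 point per library, with UT in blue, IR in red, circles for replicate 1 and squares for replicate 2. The SOX2 and SOX6 points of IR lie at 10.6 to 15.04 CPM and those of UT at 29.96 to 45.0 CPM, while SOX13 stays between 14.9 and 20.1 CPM in all 4 libraries; levels of different genes are not ranked, since they were not set per length.

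In the fit of IR against UT by edgeR's quasi-likelihood test with Benjamini-Hochberg adjustment over 14647 genes, 2 of the 9 SOX genes passed an adjusted p of 0.05, SOX2 and SOX6, both lower, where 2.48% of all genes passed, 0.847% as lower and 1.63% as higher. With the experiment number as a block 6 of the 9 passed, adding SOX5, SOX12, SOX8 and SOX9, where 27.2% of all genes passed. These counts are given only to place the genes, since the contrast was known when they were chosen. The median log2 difference of the 9 was -0.18 and that of all genes -0.00. SOX2 did not pass when UT replicate 1, IR replicate 1 or IR replicate 2 was left out, with fitted log2 differences between -1.81 and -1.20 over the fits without 1 library.

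Outside the 9, SOX17, an endoderm and endothelial factor of subgroup F, was at 7.50 and 8.37 CPM in UT and at 12.9 and 13.9 CPM in IR, and SOX18 of the same subgroup at 3.75 and 6.31 CPM in UT and at 1.92 and 3.56 CPM in IR. Neither they nor SOX7 passed the test, so 0 of 3 tested of the 10 other SOX genes listed were called by edgeR, where 2697 of 14647 genes had an unadjusted p under 0.05. SOX7 and SOX15 stayed at or below 2.27 CPM. SOX3 and SOX10 had a UMI in 0 of 1220 cells, which allows a share of up to 0.246% of cells with a UMI. SOX1, SOX14, SOX21 and SOX30 had at most 2 counts in any library.

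The number of cells with a transcript was counted after each cell was thinned to 8000 UMIs, which left 333, 356, 231 and 232 cells and set aside 25, 11, 16 and 16 shallower ones. SOX2 was detected in 18.6% (exact 95% interval 14.6 to 23.2) and 16.3% (12.6 to 20.5) of UT cells and in 8.66% (5.37 to 13.1) and 9.91% (6.39 to 14.5) of IR cells. Before thinning the shares were 28.8%, 28.9%, 14.2% and 20.2%. The SOX6 shares at equal depth were 22.5% (18.1 to 27.4) and 21.3% (17.2 to 25.98) for UT and 9.96% (6.42 to 14.6) and 11.6% (7.81 to 16.5) for IR, against 30.4%, 32.4%, 19.0% and 19.4% before thinning. For both genes the share of cells with a transcript was lower in IR, and so was the mean number of UMIs in a cell with any, 2.15 and 1.53 against 1.30 and 1.17 for SOX2 and 1.40 and 1.59 against 1.04 and 1.07 for SOX6. The mean in cells with any also depends on the mean over all cells, which was lower in IR, and that part was not tested. SOX9 was found in 71.8% to 75.3% of thinned cells in every library, with 2.54 and 2.87 UMIs per cell with any in UT and 3.19 and 3.87 in IR. SOX4 was found in 50.8% and 61.0% of UT cells and in 51.5% and 62.5% of IR cells. No cell type that lacks these genes was present, so the share of cells with a UMI from free RNA was not measured.

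SOX2 was not evenly spread over untreated cells. In UT replicate 1, 9 of 333 cells held 5 or more SOX2 UMIs after thinning, where a Poisson distribution of the same mean gives 0.0203 cells, and the variance over cells was 4.37 times the mean. The cell with most SOX2 held 15 UMIs before thinning. UT replicate 2 had 1 such cell and 4 cells with 4 UMIs, and its variance was 1.99 times the mean. IR cells reached at most 3 thinned SOX2 UMIs, with ratios of 1.51 and 1.26. SOX6 had ratios of 1.41 and 1.86 in UT and 0.984 and 1.02 in IR, and SOX12 stayed between 0.995 and 1.25 in all libraries. SOX4 had ratios of 2.26 and 2.62 in UT and 2.97 and 3.41 in IR. SOX9 had 2.09 and 2.24 in UT and 2.52 and 3.59 in IR, so ratios above 1 were not particular to SOX2. The ratio also depends on the mean, which was lower in IR for SOX2 and SOX6, and the part of the mean was not tested.

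**Figure D2:**
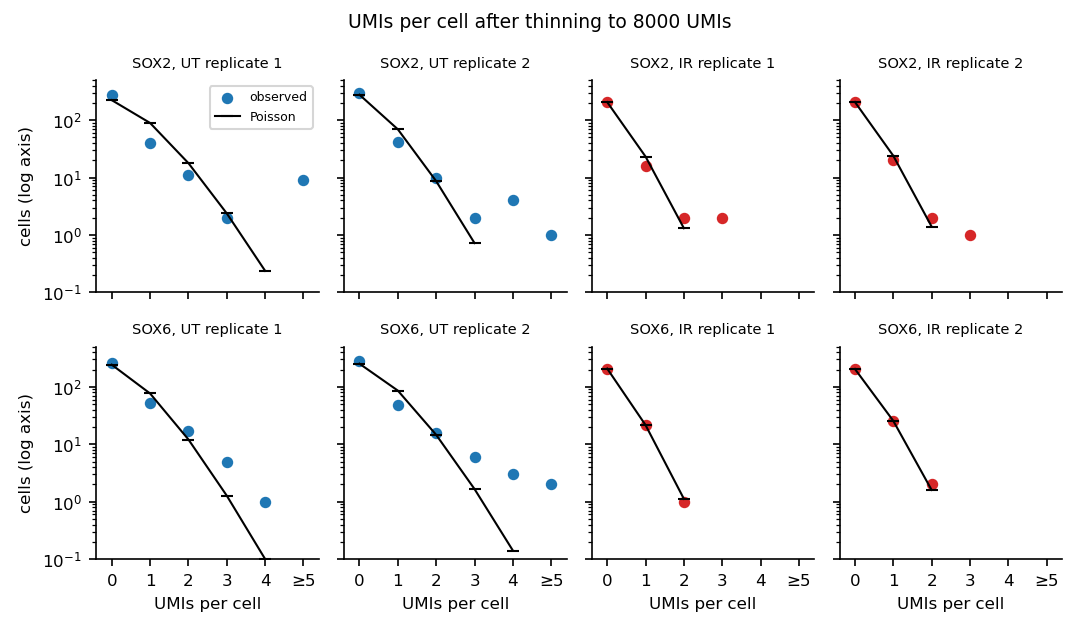
Number of cells (log axis) with 0 to 4 and 5 or more thinned UMIs of SOX2 (upper row) and SOX6 (lower row) in each library, with points for the observed cells (empty classes not drawn) and a black line, drawn down to 0.1 cells, for a Poisson distribution of the same mean. In UT replicate 1 the 9 cells with 5 or more SOX2 UMIs stand far off the line, while SOX6 in both IR libraries lies on it.

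The next comparison asks how the SOX genes relate to the cell cycle. Thinned cells were put in an S class, a G2/M class or a low-cycle class (both scores at or below the mean of UT cells) by scores over 43 replication-phase genes and 54 genes of G2 and mitosis, and the classes were compared inside libraries with library as a block. Low-cycle cells were 25.5% and 23.9% of UT cells and 55.8% and 55.6% of IR cells. MCM2, a replication licensing gene, was at 155 to 217 CPM in S cells and at 30.6 to 75.7 CPM in low-cycle cells. MKI67, a proliferation marker, was at 343 to 683 CPM in G2/M cells. Both genes are among those scored, so their levels follow in part from how the classes were made and are no separate check. Of 1152 classed cells, 378 had a score within 0.25 SD of a class limit.

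By CPM, SOX6 declined from low-cycle through S to G2/M cells. It was at 55.8 CPM in low-cycle, 34.1 in S and 16.5 in G2/M cells of UT replicate 1, and at 67.1, 32.9 and 19.5 CPM in UT replicate 2. In IR replicate 1 the same order held at 13.7, 9.02 and 6.14 CPM, and in IR replicate 2 at 14.9, 7.38 and 6.77 CPM. The S and G2/M levels rest on 12 and 9 UMIs in IR replicate 1 and on 9 and 13 in IR replicate 2. At equal depth SOX6 was found in 8.0% of S and 7.69% of G2/M cells of IR replicate 1. In IR replicate 2 the order was the other way, at 6.98% and 10.0%, and S was not tested against G2/M. In CPM all 4 libraries had SOX6 highest in low-cycle and lowest in G2/M cells. The log2 difference from low-cycle cells was -0.81 (SE 0.16, adjusted p = 9.01e-05) in S and -1.57 (SE 0.18, adjusted p = 5.88e-10) in G2/M cells. Both came from edgeR's quasi-likelihood test over 12423 genes. In IR libraries alone the S difference had the same size, -0.79, with an adjusted p of 0.111.

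SOX5 went with SOX6. In low-cycle, S and G2/M cells it was at 36.7, 20.1 and 19.4 CPM in UT replicate 1, at 52.7, 20.7 and 20.3 in UT replicate 2, at 20.7, 13.5 and 10.2 in IR replicate 1 and at 23.7, 12.3 and 10.4 in IR replicate 2. Low-cycle cells held the most SOX5 in every library, by a log2 difference of -0.99 (SE 0.17, adjusted p = 7.07e-06) for S and -1.10 (SE 0.17, adjusted p = 9.07e-07) for G2/M cells. SOX4 was at 207, 111 and 103 CPM in the same 3 classes of UT replicate 1, at 275, 133 and 160 in UT replicate 2, at 199, 72.9 and 71.0 in IR replicate 1 and at 309, 114 and 151 in IR replicate 2. Its low-cycle excess was the most precisely measured of the SOX genes, with -1.18 (SE 0.09, adjusted p = 2.99e-12) for S and -1.03 (SE 0.09, adjusted p = 3.30e-11) for G2/M. SOX12 was lower in both classes by smaller amounts, -0.32 (SE 0.12, adjusted p = 0.0295) and -0.48 (SE 0.12, adjusted p = 0.00133), again in 4 of 4 libraries. In UT libraries alone neither SOX12 difference passed (adjusted p 0.219 and 0.153). The S difference of SOX12 was also lost without UT replicate 2, IR replicate 1 or IR replicate 2 (adjusted p 0.0594 to 0.109) and with DESeq2 (0.163).

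SOX2 did not follow its relatives. It was at 34.4, 45.1 and 50.1 CPM in low-cycle, S and G2/M cells of UT replicate 1 but at 39.0, 28.2 and 24.2 in UT replicate 2, and at 9.48, 14.3 and 12.3 in IR replicate 1 and 10.1, 18.9 and 15.1 in IR replicate 2. Cycling cells held more SOX2 than low-cycle cells in 3 of 4 libraries, and the log2 differences of 0.25 (95% interval -0.12 to 0.62) and 0.20 (-0.17 to 0.57) did not pass, with adjusted p of 0.325 and 0.432 by edgeR. Without UT replicate 2 both passed, at 0.56 each (adjusted p 0.0396 and 0.0342). SOX13 did not pass either, at 0.31 (-0.06 to 0.69) in S and -0.14 (-0.53 to 0.26) in G2/M cells.

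SOX9 was the one gene of the family higher in G2/M cells. Its CPM in low-cycle, S and G2/M cells were 272, 199 and 259 in UT replicate 1, 298, 232 and 300 in UT replicate 2, 283, 266 and 367 in IR replicate 1 and 289, 262 and 482 in IR replicate 2. In UT the G2/M and low-cycle levels were close, and in both IR libraries the G2/M level was the highest of the 3. Over all libraries the G2/M difference was 0.32 (SE 0.10, adjusted p = 0.0247), and it was lost without either IR library (0.111 to 0.119) and in UT alone (log2 0.01). In S cells SOX9 was lower in 4 of 4 libraries at -0.22 (SE 0.10, adjusted p = 0.129), and passed in UT alone at -0.38 (0.000505). The test of the difference itself, IR minus UT, gave 0.56 (SE 0.12, adjusted p = 0.00432, edgeR's interaction term over 12423 genes). Without IR replicate 2 the difference was 0.37 (adjusted p = 0.314) and without UT replicate 1 it was 0.53 (0.0528). A single G2/M cell of IR replicate 2 held 88 SOX9 UMIs, and without it the G2/M level there was 443 CPM.

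Across the family, 4 of the 7 SOX genes tested were lower in S than in low-cycle cells and none was called higher, where 16.9% of all genes were lower and 36.1% differed. In G2/M cells 4 of 7 were lower and 1 higher, where 18.9% of all genes were lower, 20.1% higher and 39.0% differed. SOX8 and SOX11 were too low to be tested in this fit. The median log2 difference of the 7 was -0.32 in S and -0.48 in G2/M cells, against -0.02 and -0.01 over all genes. The IR minus UT difference of S effects passed for 0 of 7 SOX genes, where 0.652% of all genes passed and 980 of 12423 had an unadjusted p under 0.05. For G2/M effects SOX9 was the 1 of 7 that passed, where 0.797% of all genes did and 0.604% did so with a higher value in IR. Equal effects were not shown. The SOX4 difference was -0.485 (95% interval -0.79 to -0.18) in S and -0.359 (-0.65 to -0.07) in G2/M, with adjusted p of 0.207 and 0.373 by edgeR. For SOX9 in S it was 0.26 (0.02 to 0.50, adjusted p = 0.605). The intervals of the other SOX genes included 0. Low-cycle cells were also the class with the most FN1, lower in G2/M cells by -1.10 (SE 0.06), and with the most RUNX2, the osteoblast lineage factor, lower in G2/M cells by -1.21 (SE 0.16). In all, 6 of 7 mesenchymal and osteoblast markers tested were lower in S cells and 6 of 7 in G2/M cells.

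**Figure D3:**
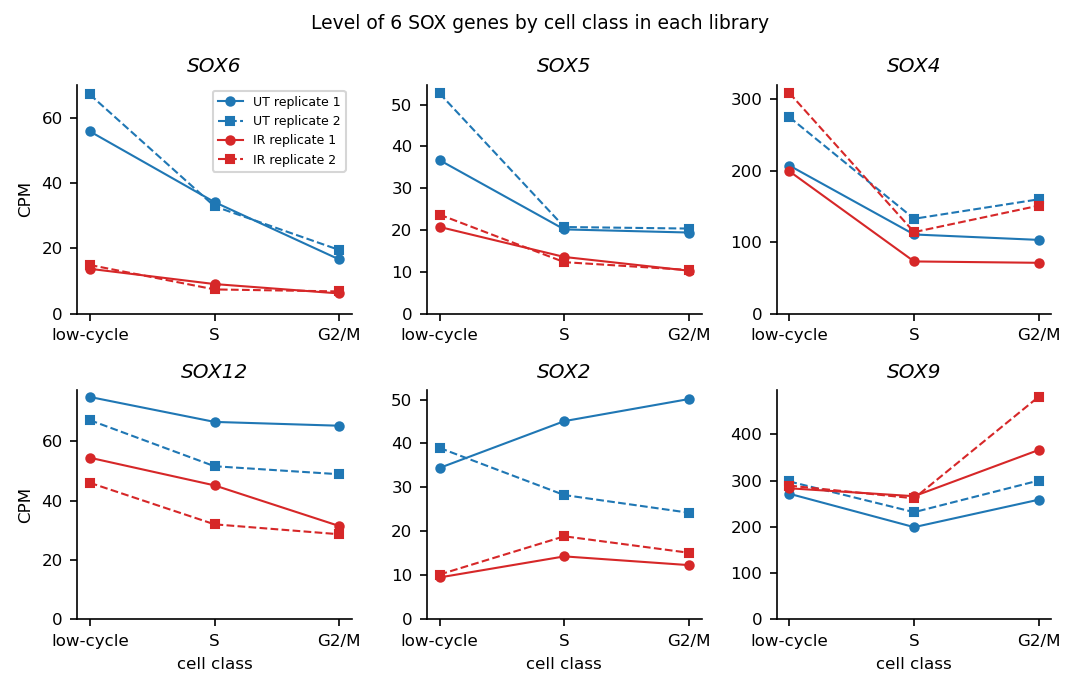
CPM of 6 SOX genes in low-cycle, S and G2/M cells, with 1 line per library (UT blue, IR red; circles and solid lines for replicate 1, squares and dashed lines for replicate 2). All 4 SOX6, SOX5 and SOX12 lines and all 4 SOX4 lines start highest in low-cycle cells, the SOX2 lines of the 2 UT libraries cross, and the SOX9 lines of IR end at 367 and 482 CPM in G2/M cells.

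Low-cycle cells held the most SOX6 and were more frequent in IR, so IR and UT were also set side by side inside each class. SOX6 in IR was 0.245 and 0.222 of its UT level in low-cycle cells of experiments 1 and 2, 0.264 and 0.225 in S cells and 0.371 and 0.348 in G2/M cells. The ratio was below 0.4 in all 6 comparisons. The UT class levels weighted by the IR class shares gave a log2 difference from UT of 0.31 and 0.36 for SOX6, and the difference measured in the same cells was -1.62 and -1.71. For SOX5 the weighted values were 0.26 and 0.41 and the measured ones -0.54 and -0.66, with ratios of 0.449 to 0.672 inside classes. The part of the class shares in these differences was not tested. The low-cycle classes were not alike in the 2 groups, with MKI67 at 81.1 and 81.6 CPM in UT and 26.7 and 32.5 CPM in IR.

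SOX2 in IR was 0.275 and 0.260 of its UT level in low-cycle cells, 0.317 and 0.668 in S cells and 0.245 and 0.623 in G2/M cells. The 2 experiments gave like ratios in low-cycle cells and less alike ones in cycling cells, and the experiments were not tested against each other. The IR levels in S and G2/M cells rest on 18 to 29 SOX2 UMIs each. In UT replicate 1 a single S cell held 15 SOX2 UMIs, and without it the S level there was 38.7 CPM. SOX12 was lower inside every class, at ratios from 0.481 to 0.726. SOX4 was at 0.961 and 1.12 of its UT level in low-cycle cells and at 0.658 to 0.944 in S and G2/M cells, with weighted log2 differences of 0.28 and 0.30 and measured ones of 0.07 and 0.36. SOX9 in low-cycle cells was level between the groups, at ratios of 1.04 and 0.970, and was at 1.42 and 1.61 in G2/M cells. SOX13 gave ratios from 0.760 to 1.20 with no common direction.

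**Figure D4:**
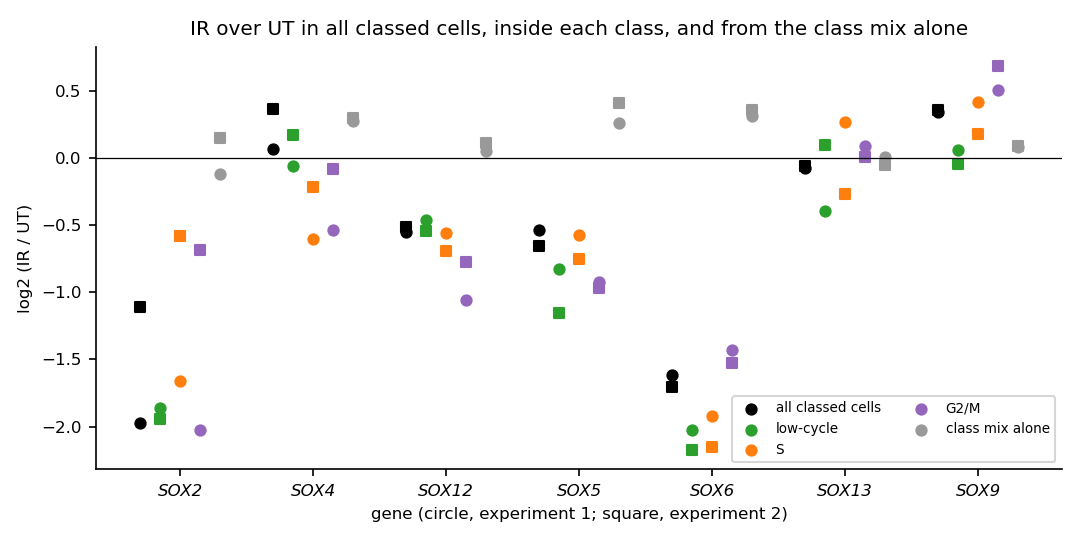
Log2 of IR over UT for 7 SOX genes in each experiment (circles, experiment 1; squares, experiment 2), in all classed cells (black), inside each class (green, orange, purple) and for the UT class levels weighted by the IR class shares (grey, class mix alone). For SOX6 all colored and black points lie between -2.17 and -1.43 and the grey ones at 0.31 and 0.36.

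Cells with a SOX2 transcript were then compared with cells without one inside each library, at equal depth, to find the genes that go with SOX2 from cell to cell. There were 62 and 58 such cells in UT and 20 and 23 in IR, and 24.2%, 27.6%, 40.0% and 52.2% of them were low-cycle in UT replicates 1 and 2 and IR replicates 1 and 2, against 25.8%, 23.2%, 57.3% and 56.0% of the cells without SOX2. SOX4 was at 222 against 123 CPM in UT replicate 1, 272 against 175 in UT replicate 2, 162 against 140 in IR replicate 1 and 391 against 242 in IR replicate 2. SOX4 was thus higher beside SOX2 in 4 of 4 libraries, by 0.66 on the log2 scale (SE 0.11, adjusted p = 3.89e-05). SOX5 was also higher in 4 of 4, by 1.10 (SE 0.27, adjusted p = 0.0472), and so was SOX9, by 0.41 (SE 0.10, adjusted p = 0.0224). SOX6, at 0.35 (95% interval -0.16 to 0.86), SOX13, at 0.53 (-0.11 to 1.17), and SOX12, at -0.09 (-0.49 to 0.31), did not pass. The SOX6 value depended on depth and on single libraries, at 1.48 (adjusted p = 0.000887) with cells thinned to 5000 UMIs, at 0.08 without UT replicate 1 and at 0.87 without UT replicate 2.

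That made 3 of the 6 SOX genes tested higher beside SOX2, where 0.218% of 10558 genes differed and 0.189% were higher. All 3 calls were lost without UT replicate 1 (adjusted p 0.114 to 0.480), those of SOX5 and SOX9 also without UT replicate 2 (0.806 and 0.707) and that of SOX5 without IR replicate 2 (0.213). With the cell class added as a block SOX4 alone still passed, at 0.64 (adjusted p = 7.64e-05), with SOX5 at 0.0519 and SOX9 at 0.0939. The directions in which they differed held in each of those fits.

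By the naming rule (called, at 20 CPM or more and of 1 sign in 4 libraries), the genes with the largest rise beside SOX2 were SOX5 and 4 more. TTYH1, a membrane protein of neural progenitors, was 2.07-fold higher (adjusted p = 0.0136), PHLDA1 1.92-fold (6.63e-08), RGS16, which dampens G-protein signalling, 1.90-fold (8.39e-06) and the protease CTSV 1.86-fold (0.0120). PHLDA1 was at 194 against 103 CPM in UT replicate 1, 235 against 115 in UT replicate 2, 181 against 91.2 in IR replicate 1 and 185 against 110 in IR replicate 2. Lower beside SOX2 were AMIGO2, a cell adhesion protein, at 0.664-fold (1.04e-05), and FRMD6, at 0.693-fold (0.00159), and only these 2 met the rule in that direction. PHLDA1, RGS16 and AMIGO2 passed in all 4 fits without 1 library, CTSV not without UT replicate 1 (0.786), and TTYH1 and FRMD6 not without UT replicate 1 or UT replicate 2 (0.0907 to 0.897). None of the 7 tested SOX2 partners and pluripotency factors, such as MYC, SALL4 or LIN28B, was called beside SOX2 by edgeR, where 694 of 10558 genes had an unadjusted p under 0.05, and POU5F1 and NANOG were too low to be tested.

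Cells with a SOX6 transcript numbered 75 and 76 in UT and 23 and 27 in IR. They were more often low-cycle than the other cells, 38.7% against 21.7%, 32.9% against 21.4%, 65.2% against 54.8% and 66.7% against 54.1% in UT replicates 1 and 2 and IR replicates 1 and 2. SOX5 was at 46.7 against 18.9 CPM, 55.9 against 21.4, 21.7 against 14.4 and 27.8 against 16.5 in those libraries, higher beside SOX6 in 4 of 4 by 1.19 on the log2 scale (SE 0.24, adjusted p = 0.00105). SOX4 was higher in 4 of 4 by 0.58 (SE 0.10, adjusted p = 1.08e-04). SOX2 was higher by 0.84 (SE 0.23, adjusted p = 0.0471) in 3 of 4, with UT replicate 2 the other way at 24.7 against 33.0 CPM. SOX13, the remaining subgroup D gene, was higher in 4 of 4 at 0.97 (SE 0.28) with an adjusted p of 0.0734 by edgeR, passed in UT alone at 1.23 (0.0184) and was at 0.54 without UT replicate 2. SOX12 was at 0.36 (0.02 to 0.70, adjusted p = 0.429) and SOX9 at 0.08 (-0.11 to 0.26).

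Thus 3 of 6 SOX genes tested were higher beside SOX6, where 1.08% of 10712 genes differed and 0.672% were higher. SOX5 missed the threshold when either UT library was dropped (adjusted p 0.103 and 0.140). The call of SOX2 was lost without UT replicate 1, IR replicate 1 or IR replicate 2 (0.0709 to 0.949), and that of SOX4 in 0 of the 4 fits without 1 library. With the cell class as a second block SOX5 stayed at 1.06 (adjusted p = 0.00888) and SOX2 at 0.85 (0.0399), and SOX4 at 0.39 missed (0.0568). Without UT replicate 1 the SOX2 difference was 0.20. Of the cells with SOX5 in the 4 libraries, 43.4%, 36.8%, 14.8% and 20.7% also held SOX6, against 18.6%, 18.4%, 9.31% and 10.3% of the cells without SOX5, and Spearman's rho between both genes over cells was 0.22, 0.17, 0.06 and 0.10. These values describe sparse counts of cells that share a library.

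Among cartilage genes that SOX9, SOX5 and SOX6 are known to bind, 3 of 9 tested were higher beside SOX6 and 0 lower. The fibrillar collagen gene COL11A1 was 1.60-fold higher (adjusted p = 3.23e-04), COL9A2, a collagen chain of the cartilage fibril surface, 1.81-fold (0.00250) and HAPLN1, which links proteoglycan to hyaluronan, 1.23-fold (0.0240). Each was lost without UT replicate 1 (0.0565, 0.517 and 0.408), and HAPLN1 also without UT replicate 2 (0.0588) or IR replicate 2 (0.0943). With the class block COL11A1 and COL9A2 passed (0.0298 and 0.0497) and HAPLN1 did not (0.0568). Beside SOX2 the count was 0 of 8, in a split where 0.218% of all genes were called against 1.08% beside SOX6. There COL9A2 was at 0.51 (SE 0.20), COL11A1 at 0.30 (SE 0.15) and HAPLN1 at 0.14 (SE 0.08) on the log2 scale. The median of the 8 was 0.09, and that of the 9 tested beside SOX6 was 0.23. The SOX2 and SOX6 splits were not tested against each other. COL2A1, the best known target, was too low to be tested.

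Other genes that went with SOX6 by the naming rule were TNFRSF14, a receptor of the TNF family (3.09-fold, adjusted p = 0.00490), VWA5B2 (2.37-fold, 0.00152), the kinase SGK1 (2.29-fold, 5.48e-05) and PLEKHB1 (2.27-fold, 1.67e-04). TNFRSF14 was at 6.67 against 4.84 CPM in UT replicate 1 and 9.87 against 4.91 in UT replicate 2. In IR it was at 43.5 against 9.62 in replicate 1 and 69.4 against 16.5 in replicate 2. It thus met the level of 20 CPM only through the 23 and 27 IR cells with SOX6. TTYH1 was 2.08-fold higher (0.00152), much as beside SOX2. Lower beside SOX6 were the interferon-induced IFIT3 (0.310-fold, 0.00334) and ISG15 (0.382-fold, 0.00597), MISP, a spindle positioning protein (0.455-fold, 0.0105), NOP16, a nucleolar protein (0.469-fold, 0.0120), and MYC (0.471-fold, 0.00451). IFIT3 was at 8.33 against 18.9 CPM in UT replicate 1 and 16.4 against 18.8 in UT replicate 2, but at 0 against 118 in IR replicate 1 and 55.6 against 198 in IR replicate 2. The IFIT3 gap in CPM was larger in the IR libraries. In UT alone the difference had the same direction, -0.60 on the log2 scale, at low counts and with an adjusted p of 0.640. Whether it differed between IR and UT was not tested for this split. SGK1 and IFIT3 passed in all 4 fits without 1 library, TNFRSF14 not without either IR library (0.0609 and 0.244), VWA5B2 and TTYH1 not without UT replicate 1 (0.431 and 0.266), and PLEKHB1 not without UT replicate 2 (0.0866). Of the lower genes, ISG15 did not pass without UT replicate 1 or either IR library (0.0584 to 0.127), MISP and MYC not without either UT library (0.104 to 0.278), and NOP16 not without UT replicate 2 or IR replicate 1 (0.0522 and 0.345). MKI67 was 0.765-fold lower beside SOX6 (adjusted p = 0.0183), and with the class block it was at -0.11 on the log2 scale (0.816).

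**Figure D5:**
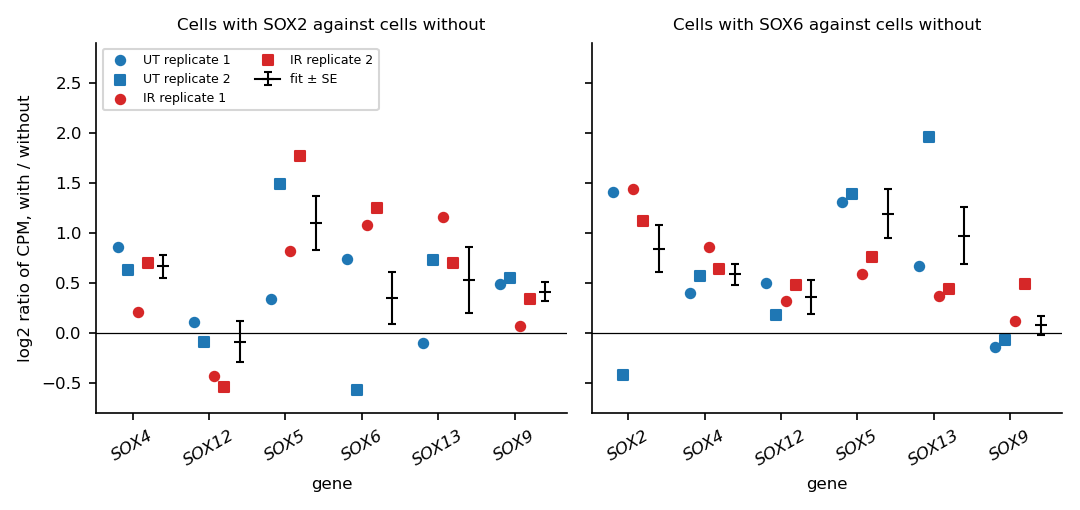
Log2 ratio of CPM of 6 SOX genes between cells with and without SOX2 (left) and with and without SOX6 (right), 1 point per library (UT blue, IR red; circles replicate 1, squares replicate 2), with the fitted value and its SE in black. SOX4 and SOX5 lie above 0 in every library in both panels, and SOX2 beside SOX6 is below 0 in UT replicate 2 alone.

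Cells above the library median of CDKN1A were compared with the rest to ask whether the SOX genes go with the p21 transcript inside a library. None of the 7 SOX genes tested passed by edgeR (0 of 7, where 6.32% of 10505 genes did and 1949 had an unadjusted p under 0.05). SOX2 was lower in the CDKN1A-high cells of 4 of 4 libraries, at nearly the same level in UT replicate 1 (49.8 CPM in the high cells) and at 25.3 against 35.2, 13.04 against 15.1 and 9.70 against 19.4 CPM, with a log2 difference of -0.29 (95% interval -0.66 to 0.08). SOX6 was at -0.06 (-0.41 to 0.30), with 2 libraries in each direction. In low-cycle cells alone SOX6 was lower in CDKN1A-high cells by -1.06 (adjusted p = 0.0459), and SOX4, at 0.27 over all libraries (0.07 to 0.47, adjusted p = 0.123), passed without IR replicate 2 at 0.40 (0.00566) and was at -0.04 (0.975) with class and library as blocks. CDKN1A-high cells were low-cycle in 38.6% and 39.2% of UT and 72.2% and 73.3% of IR cells, against 14.4%, 13.6%, 39.7% and 37.9% of CDKN1A-low cells.

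Genes around the SOX family were listed by role and read in IR against UT, with the lists drawn up when results of this contrast were known. Their counts and adjusted p-values are thus a description too. Over all genes 2.48% were called in this contrast, 1.63% higher and 0.847% lower. Of 16 neural progenitor and neuronal genes tested, 2 fell, TTYH1 at 0.359-fold (adjusted p = 0.0257) and NCAM1, a neural adhesion molecule, at 0.433-fold (0.0389), and 1 rose, STMN2, a neuronal microtubule regulator, at 3.28-fold (0.0423). NCAM1 was not called without UT replicate 2 or IR replicate 1, TTYH1 without IR replicate 1 (0.0823), and STMN2 in any fit without 1 library (0.0814 to 0.124). Of 13 cartilage genes tested 1 rose, COL27A1, at 2.39-fold (0.0249), which missed without UT replicate 2 (0.0507) or IR replicate 1 (0.0590). None of the 8 SOX2 partners and pluripotency factors, the 13 canonical WNT target and feedback genes or the 2 SOX-adjacent long non-coding RNAs tested was called by edgeR at the same threshold. The median log2 differences were -0.23 for the neural, 0.37 for the cartilage, -0.08 for the partner and -0.08 for the WNT genes, against -0.00 for all genes. Of 8 mesenchymal and osteoblast markers tested 1 was called, ALPL, alkaline phosphatase, which rose 3.80-fold (0.0412), from 1.76 to 2.56 CPM in UT to 7.92 to 9.42 CPM in IR, and was lost without UT replicate 2 or either IR library (0.063 to 0.141). The other 7 included BGLAP at -0.38, VIM at -0.24 and COL1A1 at -0.05 on the log2 scale, and the median of the 8 was 0.07.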

How the data were processed

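Single U-2 OS cells (2 UT and 2 IR libraries) were profiled by SORT-seq. The authors deposited 1 gene-by-cell matrix per library of estimated counts: transcripts per gene and cell aligned with STARsolo to GRCh38 and corrected for repeated UMIs of 6 bases, so that 99.89% to 99.93% of the values lie on that correction curve and need not be whole. Seurat 5 is also named in the submitters' processing notes, while the sources used here name neither the strand setting nor a cell filter. All barcodes in the matrices were used, and spike-in sequences (0.191% to 1.21% of counts) were left out of totals. No doublet caller was run.

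The SOX genes and all gene lists were chosen with earlier results of these data known. Counts were summed per library, or per library and cell class, rounded to whole numbers and tested with edgeR 4.0.16 (R 4.3.3) by the quasi-likelihood test with TMM scaling, filterByExpr and Benjamini-Hochberg adjustment over all genes tested, at 0.05. Class and split contrasts carried library as a block. Cells were thinned to 8000 UMIs, after the correction was turned back into whole UMIs, for classes, splits and shares of cells, and 1152 of 1220 were kept. A split gene was named when called, at 20 CPM or more on average and of 1 sign in 4 libraries, up to 5 in each direction by size, and up to 4 called genes of each list were named by p. The intervals of log2 differences are nominal 95% intervals from the SE and a normal quantile. They do not allow for the few libraries, so they are narrower than the test implies and can leave out 0 where it does not pass. Those of folds and shares are exact and cover counting error only. Alternatives were no filter, DESeq2 1.42.0, other depths, parts of the cells or libraries, other blocks and leaving out each library. The scripts were tested on simulated counts. UT and IR libraries of 1 experiment share its number in the titles, and their deviations from the group means correlated at r = 0.635 over 14647 genes, so the number was used as a pairing in the block. Promoter sequences came from RefSeq (GRCh38.p14) and positions from GENCODE.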

Additional observations from a re-analysis of the deposited data

Results flagged for a closer look

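The G2/M effect on SOX9 differed between the groups, by the interaction term of edgeR's fit over 12423 genes. The log2 difference of G2/M from low-cycle cells was greater in IR than in UT by 0.56 (SE 0.12, adjusted p = 0.00432), and it lay between 0.37 and 0.70 in the fits without 1 library, of which those without UT replicate 1 and without IR replicate 2 did not pass.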

How the results depend on the processing

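With the experiment number as a replicate block, 3977 genes and 6 SOX genes passed in IR against UT (363 and 2 without it), and with no filter on low counts 1513 and 4. Leaving out 1 library gave 108 to 234 genes and 1 to 2 SOX genes. For S against low-cycle cells (4488 genes, 4 SOX genes), UT alone gave 2963 genes, thinned counts 2503 and DESeq2 2748, IR alone gave 2 SOX genes, and the fits without 1 library gave 3630 to 3817 and 3 to 4. For G2/M (4843 and 5), thinned counts gave 2896 genes, DESeq2 2963, UT alone 3 SOX genes, and the fits without 1 library 3905 to 4014 and 4 to 6. The IR minus UT differences of these effects numbered 41 to 60 for S (81 in full, 0 SOX genes throughout) and 46 to 91 for G2/M (99 in full, 0 to 1 SOX genes) without 1 library. The SOX2 split (23 genes, 3 SOX genes) gave 1 SOX gene with no filter and with class and library as blocks, 2 genes and 0 SOX genes in low-cycle cells, 1 and 0 in IR alone, 47 genes at 5000 UMIs, and 5 to 22 and 0 to 3 without 1 library. The SOX6 split (116 and 3) gave 193 genes with no filter, 10 and 0 in low-cycle cells, 24 and 1 in IR alone, 13 at 5000 UMIs, 76 with class and library as blocks, and 32 to 114 and 1 to 2 without 1 library. The CDKN1A split (664 and 0) gave 35 and 1 in low-cycle cells, 431 in UT alone, 230 in IR alone, 410 and 1 at 5000 UMIs, 59 with class and library as blocks, and 382 to 526 and 0 to 1 without 1 library. Of 1222 values of single genes under alternatives, 941 kept direction and side of the threshold, 233 lost the call, 17 gained one and 31 changed sign, and the causes were not tested. MKI67, called lower beside SOX6, was at 0.44 in low-cycle cells. The other 30 were of SOX genes called in neither fit. In the CDKN1A split SOX4 was at -0.04 with class and library as blocks, SOX5 at 0.05 in IR alone and 0.10 at 5000 UMIs, and SOX9 at 0.08 in UT alone and 0.01 with those blocks. Beside SOX2, SOX12 was at 0.02 in UT alone, and beside SOX6, SOX9 was at -0.01 with no filter, -0.07 in low-cycle cells and -0.10 in UT alone. SOX13 was at 0.23 for G2/M with thinned counts and at 0.08 for IR against UT at equal depth. Without 1 library the log2 values ran, for the CDKN1A split, from -0.26 to 0.09 (SOX12), -0.24 to 0.11 (SOX5), -0.11 to 0.00 (SOX6) and -0.10 to 0.01 (SOX9), for SOX9 beside SOX6 from -0.06 to 0.16, for the G2/M difference from -0.11 to 0.41 (SOX13), -0.12 to 1.13 (SOX2) and -0.25 to 0.23 (SOX5), for the S difference from -0.36 to 0.58 (SOX13) and -0.16 to 0.25 (SOX6), for SOX2 in G2/M from -0.03 to 0.56, and for IR against UT from -0.52 to 1.03 (SOX11), -0.38 to 0.03 (SOX13) and -0.21 to 0.45 (SOX4). Class and library as blocks, and leaving out a library for the IR minus UT differences, were chosen after seeing the data. With 2 libraries a group, and 20 to 27 IR cells with SOX2 or SOX6, small differences in IR were not detectable at this depth.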
